A study of Caenorhabditis elegans with 6 samples.

Results

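Small nucleolar RNA (snoRNA) and small nuclear RNA (snRNA) genes were compared between set-2(bn129) and WT gonads of *C. elegans*. A gene was taken when the Ensembl WBcel235 annotation gave it the snoRNA or snRNA biotype and at least 3 of the 6 libraries held 10 or more reads of it. These rules kept 108 genes of the 46772 in the count files, 101 snoRNAs of 346 annotated (29.2%) and 7 snRNAs of 129 (5.43%). The genes were thus chosen by their measured counts, so their levels describe them and were not tested. The other 367 annotated genes fell below the rule, and 101 snoRNA and 77 snRNA genes had no counted read in any library. Reads with a mapping quality under 10 had been removed before counting.

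The set-2(bn129) animals were homozygous for a loss-of-function allele of set-2, which encodes the SET1-type methyltransferase of the COMPASS complex that methylates histone H3 at K4, and they were taken from heterozygous mothers. The WT animals were of the N2 strain. Gonads of young adults were dissected, cut at the bend, and the distal portions of several animals were pooled for each of 3 libraries per genotype. Total RNA depleted of ribosomal RNA was read as short single reads from a strand-marking kit. The series calls the libraries of a genotype biological replicates.

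snoRNAs are the guide RNAs of nucleolar particles. Box C/D snoRNAs direct the methylation and box H/ACA snoRNAs the pseudouridylation of ribosomal RNA and other RNAs, and many snoRNAs are cut out of the introns of protein-coding host genes after splicing, debranching and trimming. snRNAs form the catalytic core of the spliceosome, are present in many near-identical copies, and are made from their own promoters. The annotation used here does not divide the snoRNAs into box classes or the snRNAs into spliceosomal types, so neither is assigned below, and each gene is known here by its sequence name.

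The libraries held between 23403396 and 30724547 counts in set-2(bn129) and between 24814518 and 25231478 in WT. The set-2 transcript itself stood at 2247, 2422 and 2554 normalized counts in set-2(bn129) and at 3829, 4134 and 3898 in WT. Normalized counts are counts scaled to a common library size by the TMM method of edgeR. Ribosomal RNA genes took 8.06% to 10.6% of the counts in set-2(bn129) and 13.6% to 14.9% in WT. Summed germline markers were at 3460 to 3780 CPM (counts scaled to 1000000 per library) in set-2(bn129) and 3510 to 3770 CPM in WT. Summed body wall muscle markers were at 161 to 184 CPM in set-2(bn129) and 194 to 350 CPM in WT, with 6 of 7 passing the adjusted p-value as lower. Summed intestine markers were at 63.4 to 155 CPM in set-2(bn129) and 208 to 556 CPM in WT, with all 5 that could be tested passing as lower. The summed markers of hypodermis (92.7 to 104 CPM in set-2(bn129), 136 to 262 CPM in WT) and of the somatic gonad (35.1 to 38.0 CPM in set-2(bn129), 59.2 to 76.9 CPM in WT) also lay apart. For hypodermis, 3 of the 5 had 3 counts or fewer in every library, and the 2 that could be tested passed as lower. For the somatic gonad, 1 of the 4 that could be tested passed as lower. Summed sperm markers were at 1.41 to 2.35 CPM in set-2(bn129) and 0.206 to 0.289 CPM in WT, and 4 of the 5 had 3 counts or fewer in every library. Summed neuronal markers (65.8 to 68.6 CPM in set-2(bn129), 68.3 to 73.2 CPM in WT) overlapped between the genotypes. The part of these tissue differences in the results below was not tested. In pooled tissue, fewer cells of a type and less RNA per cell cannot be told apart.

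All 108 genes together took 0.124% to 0.161% of the counts of a set-2(bn129) library and 0.216% to 0.221% of a WT library. Their summed level was 1181, 1522 and 1268 CPM in set-2(bn129), against 2241, 2326 and 2284 CPM in WT. The genotypes did not overlap, and the log2 ratio of the means was -0.79. Most of this sum came from ZK185.9, a snoRNA gene that held 71.0% to 79.1% of the reads of the group in set-2(bn129) and 79.6% to 85.0% in WT. Without ZK185.9 the other 107 genes summed to 246.3, 441.6 and 286.9 CPM in set-2(bn129), against 456.5, 362.4 and 343.7 CPM in WT, with a log2 ratio of -0.25 and with overlap between the genotypes.

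**Figure D1:**
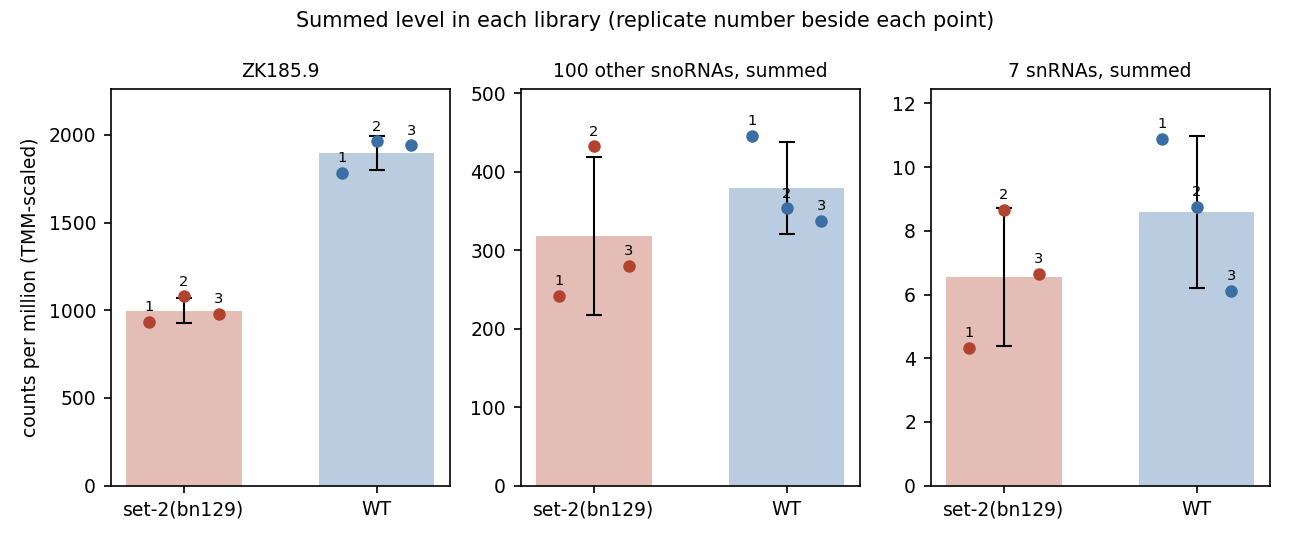
Summed level in CPM (TMM-scaled) in set-2(bn129) and WT for ZK185.9, the 100 other snoRNAs and the 7 snRNAs, on separate vertical axes that start at 0; points are libraries with their replicate number, bars are means and error bars are SDs (n = 3). The 3 set-2(bn129) libraries lie below the 3 WT libraries for ZK185.9, while the other snoRNAs overlap, at 242.0, 432.9 and 280.3 CPM in set-2(bn129) and 445.7, 353.7 and 337.6 CPM in WT.

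Some libraries stood apart for these genes. They are set beside all genes tested and beside 1862 other genes of like level, those with a mean between the quartiles of the tested group (16.4 to 75.7 normalized counts), since gaps are more frequent at low counts. The percentages of the group are over all 108 genes, many of them outside this band and the 8 untested ones below it, so the match in level is rough. Among the WT libraries, replicate 1 was the highest for 55.6% of the 108 genes, against 33.3% of all genes tested and 33.7% of those of like level. Among the set-2(bn129) libraries, replicate 1 was the lowest for 59.3% of them, against 34.2% of all genes tested and 37.0% of those of like level. Replicate 1 of set-2(bn129) lay at least 1.5 times under the next lowest library for 17 of the genes (15.7%, against 1.22% of all tested and 2.26% of those of like level). Replicate 2 of set-2(bn129) lay at least 1.5 times over the next highest library for 5 of them (4.63%, against 0.35% and 0.859%) and at least 1.5 times under the next lowest for 6 (5.56%, against 0.965% and 2.31%). Replicate 1 of WT lay at least 1.5 times over the next highest library for 7 of them (6.48%, against 0.286% and 0.43%). None of the 56 tested host genes had a gap of these kinds in these 3 libraries, but most hosts were at much higher counts, where gaps are less frequent.

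The genes were mostly at low level in these libraries, where the recovery of RNAs this short was not tested. Their median mean level was 1.05 CPM, against 25.1 CPM over all genes tested, and 76 of the 108 were under 2 CPM. For 73 genes each of the 6 libraries held 10 or more counts. Of the other 35, 7 reached 10 counts in every set-2(bn129) library but not in every WT library, and 12 reached it in every WT library but not in every set-2(bn129) library. The genes just inside the rule were K03B8.10 (0, 6 and 10 counts in set-2(bn129), 11, 12 and 6 in WT), F55A3.8 (4, 3 and 10 in set-2(bn129), 11, 12 and 6 in WT) and ZK546.18 (7, 5 and 4 in set-2(bn129), 10, 12 and 10 in WT). Those just outside it were Y71F9AM.7 (5, 7 and 7 counts in set-2(bn129), 10, 9 and 12 in WT), Y65B4BR.12 (11, 5 and 9 in set-2(bn129), 11, 3 and 6 in WT) and sup-6, annotated as an snRNA (1, 8 and 7 in set-2(bn129), 41, 5 and 16 in WT).

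Differences between genotypes were tested with edgeR's quasi-likelihood test over 9431 genes. A gene was called misregulated when its adjusted p-value was at most 0.05 and its log2 fold change, set-2(bn129) over WT, was at least 0.58 in size, which is 1.49-fold. Of the 108 genes, 100 had enough counts to be tested (94 snoRNAs and 6 snRNAs). In set-2(bn129), 17 of the 100 were called lower, where 8.36% of all genes tested were called lower, and 3 were called higher, where 6.99% were. Among the 1862 other genes of like level, 16.9% were called lower and 17.3% higher. The 73 genes with 10 or more counts in every library held 13 of the lower and 2 of the higher calls. All 3 set-2(bn129) libraries lay below all 3 WT libraries for 21 of the 100 genes (26.0% of all genes tested) and above them for 4 (26.8%). The count of lower calls was 6 without WT replicate 1, 6 without set-2(bn129) replicate 1 and 7 without set-2(bn129) replicate 3, and the count of higher calls was 1 without WT replicate 3.

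The median log2 fold change of the 100 genes was -0.33 (quartiles -0.55 and 0.09), against -0.001 over all genes tested (quartiles -0.22 and 0.18). The fitted value was below 0 for 68 of the genes and above 0 for 32. The median of the group was -0.14 without set-2(bn129) replicate 1 and -0.195 without WT replicate 1, and ranged from -0.42 to -0.14 with each library left out in turn. The median standard error of these fold changes was 0.318, against 0.0804 over all genes tested. The 95% interval lay wholly within the fold threshold for 8.0% of the group and for 59.3% of all genes tested, so for most of these genes a change of 1.49-fold could be neither called nor excluded at this depth.

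The snRNA genes had few reads. Reads with a mapping quality under 10 were removed before counting, so reads shared between near-identical copies were lost and each value below covers only the reads that could be placed. All 7 genes that met the rule are described. Y54G9A.8 (chromosome II) had 32.02, 52.1 and 57.89 normalized counts in set-2(bn129), against 57.12, 65.62 and 41.46 in WT. Y57G11C.35 (chromosome IV), in an intron of Y57G11C.5, had 25.22, 45.85 and 24.81 normalized counts in set-2(bn129), against 52.89, 33.91 and 35.08 in WT. F10D2.13 (chromosome V), in an intron of the UDP-glucuronosyltransferase gene ugt-37, had 12.61, 42.72 and 20.67 in set-2(bn129), against 44.43, 41.56 and 29.77 in WT. The genotypes overlapped in each of these genes, and in each the lowest library was of set-2(bn129).

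F11A5.14 (chromosome V) had 14.55, 32.3 and 23.98 normalized counts in set-2(bn129), against 44.43, 24.06 and 22.32 in WT. F56H6.15 (chromosome I) had 18.43, 30.22 and 22.33 in set-2(bn129), against 40.2, 35 and 13.82 in WT. T08G5.11 (chromosome V) had 8.731, 13.55 and 13.23 in set-2(bn129), against 29.62, 12.03 and 8.504 in WT. Replicate 1 of WT was the highest library for all of these genes, and the genotypes overlapped. K03B8.10 (chromosome V) was too low to be tested, with 0, 6.252 and 8.27 normalized counts in set-2(bn129) and 11.64, 13.12 and 6.378 in WT.

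None of the 6 tested snRNAs passed the adjusted p-value of edgeR's quasi-likelihood test. None passed an unadjusted p-value of 0.05 either, and DESeq2 called none of the 7. Their log2 fold changes, all below 0, ran from -0.62 for F10D2.13 (SE 0.379, adjusted p = 0.21) to -0.20 for Y54G9A.8 (SE 0.262, adjusted p = 0.56), with a median of -0.36. The 95% interval reached below -1 for 5 of the 6, so at this depth a 2-fold decrease was not excluded for them. Without set-2(bn129) replicate 2, F10D2.13 passed the test (log2 fold change -1.19, adjusted p = 0.026). The median of the snRNAs was -0.09 without WT replicate 1 and -0.68 without WT replicate 3. Summed, the 7 snRNAs stood at 4.34, 8.66 and 6.65 CPM in set-2(bn129) and 10.9, 8.76 and 6.11 CPM in WT. Y54G9A.8, Y57G11C.35, F10D2.13, F56H6.15 and T08G5.11 each overlap an exon of an ncRNA gene on the opposite strand. How the counting used the strand of a read is not given in the sources used here, so reads of the 21 genes among the 108 with an exon on the opposite strand (18 of ncRNA and 3 of protein-coding genes) cannot be told apart from those of their antisense partner.

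**Figure D2:**
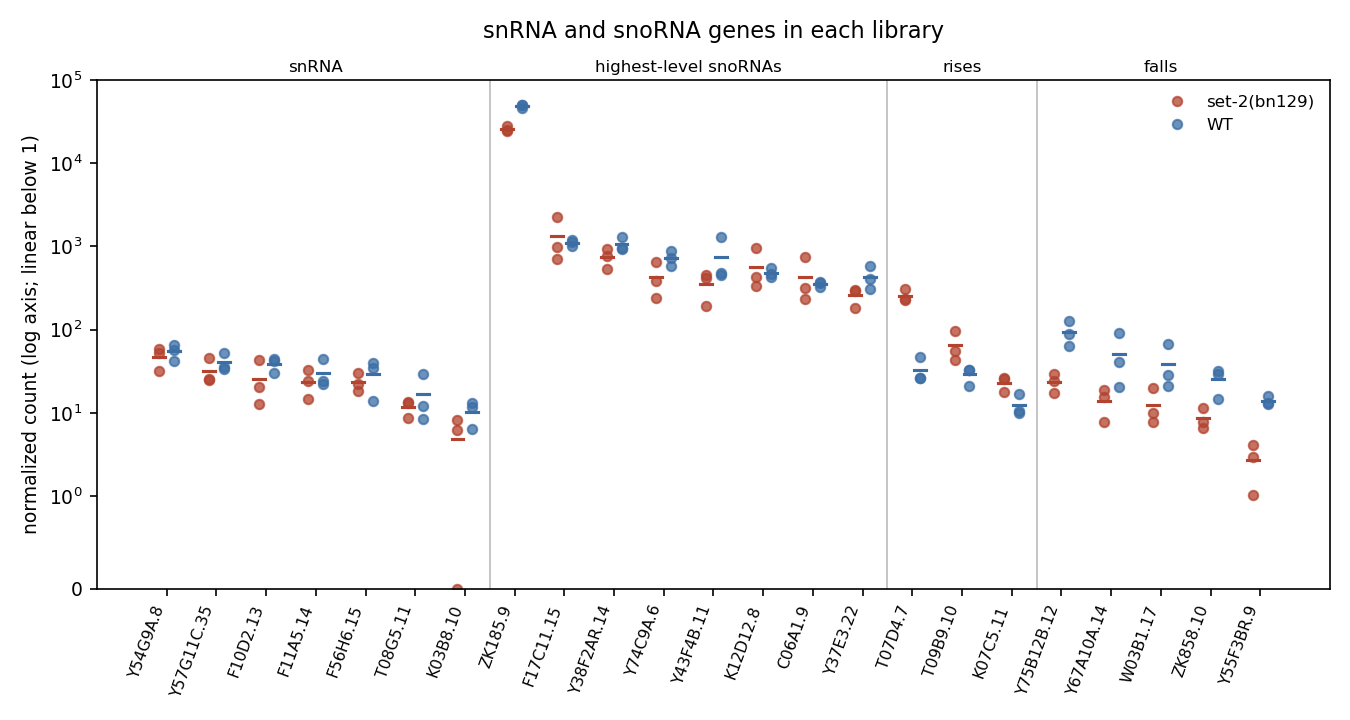
Normalized counts (log axis, linear below 1) of the snRNAs, the 8 snoRNAs of highest mean level and the other snoRNAs named for a rise or a fall; each point is a library of set-2(bn129) (red, left) or WT (blue, right) and each short line is a mean (n = 3). ZK185.9 lies well above every other gene, T07D4.7 is higher in set-2(bn129), and the genes at the right end are lower in set-2(bn129).

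The snoRNAs of highest level included the clearest fall. ZK185.9, a gene of 215 bases at positions 4538702 to 4538916 of chromosome IV (WBcel235), lies outside any intron of its strand. It had 24060, 27790 and 25240 normalized counts in set-2(bn129), against 45910, 50540 and 49940 in WT. Every set-2(bn129) library was below every WT library, by a wide margin. ZK185.9 fell by 0.93 on the log2 scale (SE 0.060, edgeR adjusted p = 1.9e-06), which is 1.90-fold lower in set-2(bn129), and the call was made in all 15 alternative fits (another tool, other scalings and filters, a replicate block and each library left out), with log2 fold changes from -0.98 to -0.81.

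Next in level was F17C11.15, in an intron of eef-1G, the gene of a translation elongation factor subunit. It had 995.4, 2273 and 698 normalized counts in set-2(bn129), against 998.6, 1114 and 1207 in WT. Replicate 2 of set-2(bn129) was the highest library and the other set-2(bn129) libraries the lowest, so the fitted log2 fold change of 0.24 (SE 0.317, adjusted p = 0.57) rested on 1 library. Without that library it was -0.39 (adjusted p = 0.052), and with WT replicate 1 left out as well, a choice made after the values were seen, -0.46 (adjusted p = 0.042). K12D12.8, in an intron of the topoisomerase II gene top-2, showed the same order, with 424, 956.5 and 337.4 normalized counts in set-2(bn129), against 545.9, 427.6 and 466.7 in WT (log2 fold change 0.24, SE 0.298, adjusted p = 0.54). C06A1.9, in an intron of cdc-48.1, the gene of an AAA ATPase that unfolds ubiquitylated proteins, had 320.2, 744 and 231.6 in set-2(bn129), against 376.6, 325.9 and 363.6 in WT (log2 fold change 0.27, SE 0.322, adjusted p = 0.53). Without set-2(bn129) replicate 2 these values were -0.34 (adjusted p = 0.081) for K12D12.8 and -0.37 (adjusted p = 0.082) for C06A1.9. In each of these 3 genes the WT libraries lay inside the range of the set-2(bn129) libraries. Their hosts had log2 fold changes of 0.08 (eef-1G), 0.03 (top-2) and 0.12 (cdc-48.1), none past the adjusted p-value.

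Y38F2AR.14, in an intron of Y38F2AR.12, had 531.6, 931.5 and 763.3 normalized counts in set-2(bn129), against 1287, 967.9 and 930.2 in WT. The highest set-2(bn129) library reached just above the lowest WT library. Its log2 fold change of -0.52 (SE 0.170, adjusted p = 0.029) passed the p-value but not the fold threshold, and the adjusted p was between 0.054 and 0.10 without WT replicate 1 or without set-2(bn129) replicate 1 or 3.

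Y74C9A.6 (chromosome I, 163 bases, outside introns) had 242.5, 649.2 and 387 normalized counts in set-2(bn129), against 872.7, 727.3 and 579.4 in WT. Replicate 2 of set-2(bn129) was above the lowest WT library, so the genotypes overlapped. It fell by 0.78 on the log2 scale (SE 0.263, adjusted p = 0.034), and the call was lost without WT replicate 1 (log2 fold change -0.62, adjusted p = 0.089), WT replicate 2 (-0.78, 0.076), set-2(bn129) replicate 1 (-0.50, 0.098) or set-2(bn129) replicate 3 (-0.71, 0.089).

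Y43F4B.11, in an intron of the chromokinesin gene klp-19, had 192.1, 453.3 and 412.7 normalized counts in set-2(bn129), against 1285, 458.3 and 480.5 in WT. The genotypes did not overlap, but WT replicate 1 stood far above the other WT libraries, which lay close to the upper set-2(bn129) libraries. It fell by 1.07 on the log2 scale (SE 0.380, adjusted p = 0.041). Without WT replicate 1 its log2 fold change was -0.41 (adjusted p = 0.21), and the call was also lost without set-2(bn129) replicate 1 (-0.78, adjusted p = 0.15), replicate 2 (-1.28, 0.064) or replicate 3 (-1.21, 0.055). Its host klp-19 had a log2 fold change of -0.06 (adjusted p = 0.24).

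Y37E3.22 (chromosome I), in an intron of Y37E3.8, had 182.4, 302.2 and 291.1 normalized counts in set-2(bn129), against 578.6, 401.4 and 304 in WT. The genotypes met without overlap at the highest set-2(bn129) and the lowest WT library. It fell by 0.73 on the log2 scale (SE 0.225, adjusted p = 0.023), while its host had a log2 fold change of -0.08 (adjusted p = 0.32). The call was lost without WT replicate 1 (log2 fold change -0.44, adjusted p = 0.082) or set-2(bn129) replicate 1 (-0.53, 0.093).

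The rises were few. T07D4.7, a snoRNA gene of 118 bases at positions 8877143 to 8877260 of chromosome II, outside introns, had 229, 236.5 and 305.2 normalized counts in set-2(bn129), against 46.55, 26.25 and 26.58 in WT. The lowest set-2(bn129) library was several times above the highest WT library. T07D4.7 rose by 2.95 on the log2 scale (SE 0.215, adjusted p = 3.6e-06), which is 7.73-fold higher in set-2(bn129), and was called in all 15 alternative fits (2.81 to 3.28). The nearest tested gene upstream on its strand, at 1235 bases, was the RNA helicase gene rha-1, with a log2 fold change of -0.16 (adjusted p = 0.016).

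T09B9.10, a snoRNA gene at positions 9754602 to 9754743 of chromosome X and outside introns, had 42.69, 96.9 and 55.41 normalized counts in set-2(bn129), against 32.79, 32.81 and 21.26 in WT. The genotypes did not overlap, and set-2(bn129) replicate 2 was the highest. T09B9.10 rose by 1.155 on the log2 scale (SE 0.322, adjusted p = 0.014), and the call was lost without WT replicate 3 (log2 fold change 0.97, adjusted p = 0.051) or set-2(bn129) replicate 2 (0.77, 0.065). K07C5.11 (chromosome V, positions 10352710 to 10352836), in an intron of nol-56, which encodes a core protein of box C/D particles, had 25.22, 17.71 and 26.46 normalized counts in set-2(bn129), against 16.93, 9.843 and 10.63 in WT. The lowest set-2(bn129) library was only just above the highest WT library. K07C5.11 rose by 0.89 (SE 0.328, adjusted p = 0.046), and the call was lost without WT replicate 2 (0.75, 0.15), WT replicate 3 (0.79, 0.13), set-2(bn129) replicate 1 (0.83, 0.12) or set-2(bn129) replicate 3 (0.78, 0.14).

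The largest falls were in snoRNA genes outside introns. Y55F3BR.9, 78 bases at positions 867056 to 867133 of chromosome IV, had 2.91, 1.042 and 4.135 normalized counts in set-2(bn129), against 12.69, 13.12 and 15.95 in WT. Every set-2(bn129) library was under every WT library, at a handful of reads. It met the count rule through WT alone, with no set-2(bn129) library at 10 counts, so it could enter the group only as a gene lower in set-2(bn129). Y55F3BR.9 fell by 2.27 (log2, SE 0.466, adjusted p = 0.0024) and overlaps the exon of an ncRNA gene on the other strand. Y75B12B.12, 118 bases at positions 15190976 to 15191093 of chromosome V, had 17.46, 23.97 and 28.94 normalized counts in set-2(bn129), against 126.9, 88.59 and 62.72 in WT. The highest set-2(bn129) library was well under the lowest WT library. It fell by 1.97 (log2, SE 0.293, adjusted p = 0.00038), and its call, like that of Y55F3BR.9, was made in every alternative fit that tested it.

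Y67A10A.14, 174 bases at positions 14326948 to 14327121 of chromosome IV, had 7.761, 18.76 and 15.71 normalized counts in set-2(bn129), against 92.03, 40.47 and 20.2 in WT. W03B1.17, 200 bases at positions 4347632 to 4347831 of the same chromosome, had 7.761, 19.8 and 9.924 in set-2(bn129), against 67.7, 28.44 and 21.26 in WT. In both genes the highest set-2(bn129) library was just under the lowest WT library, and WT replicate 1 was the highest. Y67A10A.14 fell by 1.85 (log2, SE 0.513, adjusted p = 0.013), a call lost without WT replicate 1 (-1.10, adjusted p = 0.053) or set-2(bn129) replicate 1 (-1.56, 0.060). W03B1.17 fell by 1.66 (log2, SE 0.480, adjusted p = 0.016), a call lost without WT replicate 1 (-1.01, 0.069), set-2(bn129) replicate 1 (-1.42, 0.071) or set-2(bn129) replicate 3 (-1.51, 0.056). ZK858.10, 170 bases on chromosome I, had 7.761, 11.46 and 6.616 normalized counts in set-2(bn129), against 29.62, 31.72 and 14.88 in WT. Its genotypes did not overlap and it fell by 1.57 (log2, SE 0.386, adjusted p = 0.0072), a call made in every alternative fit that tested it, but it overlaps an exon of the poly(A) polymerase gene gld-4 on the same strand, so reads of either gene may be counted with the other or dropped.

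The other 8 called genes all fell, with log2 fold changes from -1.11 (F25H2.15) to -0.62 (F11A10.9). They comprised F25H2.15, Y53F4B.48, F25H2.14, Y23H5B.10, Y6B3B.15, F16A11.12, Y92C3B.4 and F11A10.9, which are named after their values were seen. Y53F4B.48, F25H2.14 and Y23H5B.10 each overlap an exon of an ncRNA gene on the opposite strand. Among the 8 only Y53F4B.48 was called in all 15 alternative fits. It had 74.7, 113.6 and 100.1 normalized counts in set-2(bn129), against 226.4, 191.4 and 162.6 in WT, without overlap, and fell by 1.01 (log2, SE 0.178, adjusted p = 0.0011). F25H2.14 lies in an intron of tct-1, Y92C3B.4 in an intron of the splicing factor gene uaf-1, F11A10.9 in an intron of rbm-34 and F16A11.12 in an intron of ppfr-1. Of the 20 calls in the group, 14 were lost in at least 1 alternative fit. T07D4.7, ZK185.9, Y53F4B.48 and Y75B12B.12 were called in all 15, and Y55F3BR.9 and ZK858.10 in the 14 that tested them, both being too low for the filter of 10 counts in every library. With DESeq2, 10 of the 20 calls were lost, among them those of Y74C9A.6, Y43F4B.11, Y37E3.22 and K07C5.11 (adjusted p-values from 0.10 to 0.19) and of 6 of these 8 genes.

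By class, the 94 tested snoRNAs held all 20 calls, 17 lower and 3 higher (8.36% and 6.99% of all genes tested, 16.9% and 17.3% of those of like level). DESeq2 called 9 snoRNAs lower and 2 higher. The snoRNAs had a median log2 fold change of -0.28, or -0.11 without set-2(bn129) replicate 1 and -0.39 without set-2(bn129) replicate 2. The 6 snRNAs, as given above, had a median of -0.36 and no call. The difference between the classes was not tested.

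By annotated length, the genes were divided into 3 classes of near equal size, up to 126 bases (36 genes), 127 to 142 bases (39 genes) and 144 to 344 bases (33 genes). In the longest class 10 of 31 tested genes were called lower and none higher by edgeR's test (8.36% and 6.99% of all genes tested, 16.9% and 17.3% of those of like level), the median log2 fold change was -0.44, and 28 of the 31 fitted values were below 0. No gene of this class passed as higher at an unadjusted p-value of 0.05 or with DESeq2, and the 3 with values above 0 were F17C11.15, C17H12.36 (0.31, adjusted p = 0.15) and K07C11.11 (0.16, adjusted p = 0.65). In the middle class 2 of 37 were called lower and 2 higher, with a median of -0.07. In the shortest class 5 of 32 were called lower and 1 higher, with a median of -0.12. DESeq2 called 5 genes of the longest class lower, 2 of the middle and 2 of the shortest, and 0, 1 and 1 higher. With DESeq2, 6.21% of all genes with an adjusted p-value were called lower and 4.58% higher. When libraries were left out in turn, the median of the longest class ranged from -0.64 to -0.26, that of the middle class from -0.31 to 0.06 and that of the shortest class from -0.34 to -0.11. The median of the middle class was also above 0 (0.04) when total counts were used as library sizes, a scaling under which the median of all genes tested was 0.11.

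Across the 100 genes, length and log2 fold change had a Pearson correlation of -0.15 and a Spearman correlation of -0.28, and within the 68 intronic genes of -0.24 and -0.36. Among the 32 genes outside introns the values were -0.03 and -0.04. The genes share their libraries and are not independent replicates, so these correlations are descriptions. Other tested genes with an exon length of up to 344 bases (224 genes of every biotype) had a median of -0.18 on the log2 scale. Of these, 37 were called lower and 10 higher, 21.0% in all, where 8.36% and 6.99% of all genes tested were called.

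**Figure D3:**
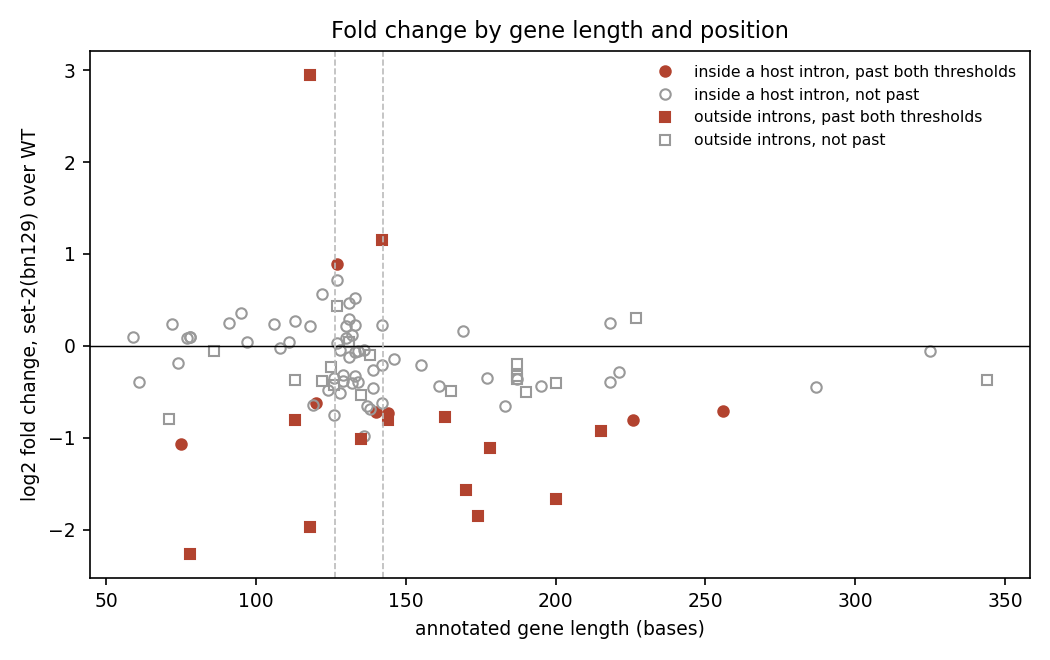
Log2 fold change, set-2(bn129) over WT, of the 100 tested genes against annotated gene length in bases; circles lie inside a host intron, squares outside, filled red marks are past both thresholds, and the dashed lines divide the 3 length classes. Right of the second line 28 of 31 marks are below 0, and the mark near 3 is T07D4.7.

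By position, 74 of the 108 genes (68.5%) lay inside an intron of another gene on the same strand, among them 72 snoRNAs and 2 snRNAs. Of the 367 annotated genes below the rule, 107 (29.2%) did. The host introns were 101 to 10404 bases long, with a median of 272.5. There were 57 hosts, of which 13 carried more than 1 of the genes, and 12 were ribosomal protein genes or ubl-1, whose product carries a ribosomal protein, with 19 of the genes between them. Reads of unspliced host RNA that cover such a gene are counted with it and cannot be told apart from the processed RNA.

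Of the 68 tested intronic genes, 6 were called lower and 1 higher, with a median log2 fold change of -0.17, where 8.36% and 6.99% of all genes tested, and 16.9% and 17.3% of those of like level, were called. Of the 32 tested genes outside introns, 11 were called lower and 2 higher, with a median of -0.41. DESeq2 called 1 intronic gene lower and 0 higher, and 8 genes outside introns lower and 2 higher. Over all genes with a DESeq2 adjusted p-value, 6.21% were called lower and 4.58% higher. Within the longest class the medians were -0.38 inside introns (16 genes, 3 called lower) and -0.50 outside (15 genes, 7 called lower). Within the shortest class they were 0.06 inside introns (22 genes, 2 called lower) and -0.40 outside (10 genes, 3 called lower and 1 higher), and within the middle class -0.10 inside (30 genes) and 0.04 outside (7 genes). With libraries left out in turn, the median ranged from -0.38 to -0.06 for the intronic genes and from -0.63 to -0.37 for those outside. The difference between the positions was not tested.

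None of the 19 genes in ribosomal protein hosts was called by edgeR's test (8.36% of all genes tested were called lower and 6.99% higher). None passed an unadjusted p-value of 0.05 and DESeq2 called none, and their median log2 fold change was -0.05. For 5 of the 19 the 95% interval lay wholly within the fold threshold. Summed, they stood at 35.66, 42.03 and 44.57 CPM in set-2(bn129), against 49.82, 45.09 and 35.81 CPM in WT, with wide overlap. The 49 tested genes in other hosts held all 7 calls of the intronic genes and had a median of -0.21. These calls were 14.3% of the 49, where 15.3% of all genes tested and 34.2% of those of like level were called. DESeq2 called 1 gene in other hosts lower and 0 higher. The difference between the host groups was not tested. The grouping by ribosomal protein hosts was made after the values were seen.

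The host genes were compared in the same fit. Of 56 tested, 12 passed the adjusted p-value as higher (20.3% of all genes tested did) and 12 as lower (21.1%), with a median log2 fold change of -0.03. Past both thresholds were F55A11.6 (0.67, adjusted p = 0.041) and the nuclear hormone receptor gene nhr-15 (0.64, adjusted p = 0.021), higher in set-2(bn129), and the anchoring protein gene akap-1 (-0.66, adjusted p = 0.0001) and the reticulon gene ret-1 (-0.75, adjusted p = 5e-05), lower in set-2(bn129). The snoRNAs inside these hosts had no call, but the interval of each held the log2 fold change of its host. The intervals were -0.79 to 1.22 for W06A7.12 and -0.69 to 0.65 for C56G2.20. At these low counts, whether the snoRNAs changed with their hosts cannot be told. W06A7.12, in ret-1, had 12.61, 5.21 and 17.37 normalized counts in set-2(bn129), against 6.347, 12.03 and 12.76 in WT, while ret-1 had 1744, 1875 and 1895 in set-2(bn129), against 3413, 3258 and 2626 in WT. C56G2.20, in akap-1, had 14.55, 17.71 and 12.4 normalized counts in set-2(bn129), against 13.75, 15.31 and 15.95 in WT, with full overlap. Over 67 intronic genes with a tested host, the log2 fold change of the gene minus that of the host had a median of -0.14, with 26 above their host and 41 below. The correlation of the 2 fold changes across these genes was 0.17 (Pearson) and 0.32 (Spearman), given as a description, since genes of 1 host share it and all share their libraries.

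**Figure D4:**
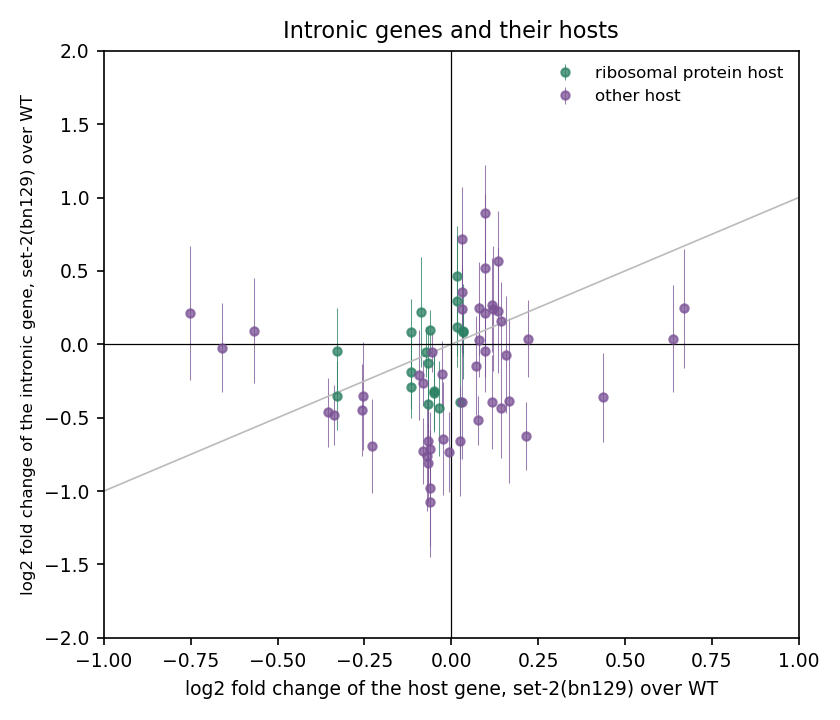
Log2 fold change, set-2(bn129) over WT, of 67 intronic genes (vertical) against that of their host gene (horizontal); each point is a gene, bars are standard errors of its fold change, green marks ribosomal protein hosts, and the grey line is equality. Hosts spread from -0.75 to 0.67, with 26 genes above their host and 41 below it.

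Several hosts carried more than 1 of the genes. The 4 snoRNAs in nol-56 (K07C5.10, K07C5.11, K07C5.12 and K07C5.18) summed to 63.06, 90.65 and 89.32 normalized counts in set-2(bn129), against 74.05, 48.12 and 69.1 in WT, and only K07C5.11 was called. The nol-56 transcript had 13900, 13560 and 14830 in set-2(bn129), against 12890, 13860 and 12810 in WT. Both snoRNAs in klp-19, Y43F4B.11 and Y43F4B.12, had WT replicate 1 as their highest library and set-2(bn129) replicate 1 as their lowest. Y43F4B.12 had 22.31, 64.6 and 64.51 normalized counts in set-2(bn129), against 159.7, 72.18 and 68.03 in WT (log2 fold change -0.98, SE 0.394, adjusted p = 0.065). The 3 snoRNAs in top-2 summed to 446.3, 1003 and 360.6 normalized counts in set-2(bn129), against 586, 458.3 and 496.4 in WT, and set-2(bn129) replicate 2 was the highest library for each of them. The top-2 transcript did not share this order, with 25650, 27570 and 28830 in set-2(bn129), against 27070, 27520 and 25650 in WT. Both snoRNAs in air-1, the Aurora A kinase gene, summed to 54.33, 116.7 and 63.68 in set-2(bn129), against 89.92, 87.5 and 83.98 in WT, while air-1 itself passed the adjusted p-value as higher (log2 fold change 0.14, adjusted p = 0.0085). In cdc-48.1 and eef-1G the second snoRNA (C06A1.8 and F17C11.14) was not called.

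Per kilobase, the level of an intronic gene was above that of its host for 8 of 74, and the median ratio was 0.0414. These are ratios of reads, and how well RNAs of 59 to 344 bases were recovered in the libraries was not tested. Y38F2AR.14 was 241 times above its host per kilobase, F10D2.13 238 times, K10D3.10 25.1 times and Y57G11C.35 17 times, and the hosts of these genes held only 0 to 143.8 normalized counts in any library. The snoRNAs in ribosomal protein hosts were at 0.124% to 3.01% of their host per kilobase. K10D3.10, a gene of 325 bases, had 178.5, 182.3 and 168.7 normalized counts in set-2(bn129), against 157.6, 175 and 216.9 in WT, with a log2 fold change of -0.06. It overlaps an exon of the protein-coding gene hpo-11 on the same strand, so its level may hold reads of that gene.

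The proteins that bind, make and process these RNAs were compared as lists. Of the box C/D core genes, nol-58 (log2 fold change 0.23) and snu-13 (0.29) passed the adjusted p-value as higher, and fib-1, the fibrillarin methyltransferase (-0.01), and nol-56 (0.10) did not. Of the box H/ACA core genes, the pseudouridine synthase gene dkc-1 (0.19) passed as higher out of 3 tested, and nola-3 had no counted read in any library. In snoRNP assembly, ruvb-1, an AAA ATPase gene, passed as higher (0.39) out of 3 tested. Of the 13 tested genes for intron debranching and exonuclease trimming, 8 passed, each as higher, among them the exosome genes exos-3 (0.33), dis-3 (0.29) and crn-3 (0.25). The debranching enzyme gene dbr-1 (0.04) and the exonuclease gene xrn-2 (0.04) did not pass.

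For the spliceosome, 2 of 7 Sm ring genes (snr-1, 0.12, and snr-6, 0.20) and 4 of 8 LSM ring genes (lsm-5 with the largest value, 0.34) passed, each as higher. Of 11 genes for proteins of single snRNPs, 6 passed as higher and 1 as lower, and these included snrp-40.1 (0.71) and the helicase gene snrp-200 (-0.32). Of 15 genes for snRNA transcription and 3' end formation, ints-7 (0.16) passed as higher and ints-3 (-0.37), ints-4 (-0.26) and ints-6 (-0.18), all coding for Integrator subunits, as lower. The Sm loading gene smi-1 (0.33) and the cap methyltransferase gene tgs-1 (0.14) passed as higher out of 3. Over all lists, 27 of 67 tested genes passed the adjusted p-value as higher (20.3% of all genes tested did) and 4 as lower (21.1%), and snrp-40.1 alone also passed the fold threshold. Under total counts as library sizes, the median of all genes tested was 0.11, so directions of values near 0 depend on the scaling.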

How the data were processed

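The 6 libraries (3 of set-2(bn129), 3 of WT) were deposited by the authors as raw counts of reads per gene, with no normalization. Per the labels and the methods, reads were aligned with STAR 2.4.1d to WormBase release WS254, reads with a mapping quality under 10 were removed with SAMtools 0.1.19, and the rest were counted with HTSeq 0.7.2. The labels name polyA RNA, whereas the protocol describes total RNA depleted of ribosomal RNA. A deposited table of the authors' own comparison, which holds numbers of genes at its steps, was not used.

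Of 46772 gene IDs, 46549 matched the Ensembl 115 annotation of WBcel235, the source of biotypes, lengths, introns and overlaps. A host is a gene of the same strand with the small gene inside an intron, and a protein-coding gene was preferred where several qualified. With edgeR 4.0.16 (R 4.3.3), genes passing filterByExpr were scaled by TMM and fitted by genotype with the quasi-likelihood test, and p-values were adjusted by Benjamini and Hochberg over 9431 genes. Misregulated means past an adjusted p of 0.05 and past 0.58 or -0.58 on the log2 scale. Intervals are at 95%. Each p-value tests the difference between genotypes against the variation between libraries of a genotype. Fits were tested on simulated data.

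Alternatives were DESeq2 1.42.0 (test and size factors), upper quartile and total count scaling, other count filters, a replicate block, a threshold of 1, exon overlaps left out, and each library left out. Named were all snRNAs, the 8 snoRNAs of highest level, up to 6 rises and 6 falls past both thresholds without overlap, their hosts, the 3 genes on either side of the count rule, and a few genes of each list. The genes, lists and tests were chosen with earlier results of these data known. The ribosomal protein host group, the band of like levels, the neighbours and the pair of libraries left out together were added after seeing the data.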

Additional observations from a re-analysis of the deposited data

How the results depend on the processing

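The count of genes called lower, 17 with edgeR, was 9 with the DESeq2 Wald test, 8 at a log2 threshold of 1, and 6 to 18 with libraries left out in turn. The count called higher, 3, was 1 to 3 with libraries left out. With total counts as library sizes, 13 were called lower and 3 higher, the median of all genes tested was 0.11, and the split over all genes was 644 lower and 893 higher, against 788 and 659 with TMM. The median of the shortest class was -0.007 with total counts, -0.022 without genes that overlap exons, and -0.32 with set-2(bn129) replicate 2 and WT replicate 1 left out together (added after seeing the data). With libraries left out in turn it ranged from -0.34 to -0.11, that of the middle class from -0.312 to 0.057, and that of the intronic genes from -0.376 to -0.059. F17C11.15, at 0.244, ranged from -0.39 to 0.56 with libraries left out in turn and turned to -0.457 (adjusted p = 0.042) with the same 2 libraries left out. Same-numbered libraries of the genotypes did not deviate together (correlations -0.084, -0.049 and -0.169). With 3 libraries per genotype, this cannot show whether same-numbered libraries were prepared together. A replicate block called 11 lower and 2 higher. The cause of these shifts was not tested. Low counts limit most of the group: its median standard error was 0.318, against 0.0804 over all genes.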

Other observations

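The 634 annotated tRNA genes summed to 20.3, 23.2 and 29.0 CPM in set-2(bn129), against 14.4, 9.94 and 10.9 CPM in WT, without overlap, although only 4 of them had enough counts to be tested (median log2 fold change 0.58). The 118 tested genes of the ncRNA biotype had a median of -0.31 on the log2 scale. By edgeR's test, 21 of them were called lower and 2 higher in set-2(bn129) (8.36% and 6.99% of all genes tested). The 367 snoRNA and snRNA genes below the count rule summed to 13.53, 17.69 and 15.2 CPM in set-2(bn129), against 23.47, 17.93 and 18.96 CPM in WT.

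Of the 13 called genes outside introns, the nearest tested gene upstream on the same strand passed the adjusted p-value in the same direction for 5 and in the other direction for 2. The nearest downstream, present for 12, did so for 2 and 2. Over all genes tested, 20.3% passed as higher and 21.1% as lower, and a link between the genes and their neighbours was not tested. Y67A10A.14 fell by 1.85 on the log2 scale and xdh-1, at 73992 bases upstream, by 1.22 (edgeR adjusted p = 0.0076). W03B1.17 fell by 1.66, while Y24D9B.1, upstream at 25710 bases, rose by 2.01 (edgeR adjusted p = 0.0011). Gene F25H2.15 fell by 1.11, while ubc-25, at 362 bases upstream, had a log2 fold change of -0.09 (adjusted p = 0.12) and pas-5, at 906 bases downstream, 0.09 (adjusted p = 0.14). The genotypes of F25H2.15 overlapped. Its call was made in 9 of 15 alternative fits, among them 1 of the 6 with a library left out, and was lost with DESeq2.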
